A study of Mus musculus with 46 samples.

Results

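The genes described here are 9 genes of the phagocyte superoxide system, taken by symbol from the 46264 gene symbols of the deposited table, and all 9 are present. 6 belong to the NADPH oxidase or support it (Cybb, Cyba, Ncf1, Ncf4, Rac2 and Hvcn1), and 3 code enzymes that remove superoxide or hydrogen peroxide (Sod1, Sod2 and Cat). In phagocytes the oxidase is kept in pieces: Cybb and Cyba form the haem-bearing core in the membrane, and on activation cytosolic proteins, among them Ncf1 and Ncf4, and the GTPase Rac2 join it, after which it passes electrons from NADPH to oxygen and makes superoxide. Hvcn1 is a proton channel that carries away the charge and acid this leaves behind. The superoxide dismutases Sod1, mainly of the cytosol, and Sod2, of the mitochondrial matrix, turn superoxide into hydrogen peroxide, and catalase (Cat) turns hydrogen peroxide into water and oxygen.

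The series comes from a mouse model of mucous membrane pemphigoid with antibodies against laminin 332, a protein of the epithelial basement membrane, and asks what intravenous immunoglobulin (IVIG, pooled antibody) does in it. A separate experiment labelled Ics, an abbreviation that the labels do not expand, has 3 times, 0 h (whose titles say unstimulated), 3 h and 6 h, with 4 libraries each. Blood and neutrophils have 5 IVIG and 5 PBS (saline) libraries each, monocytes have 3 IVIG and 5 PBS, and skin has 3 of each. The extraction protocol names whole blood and neutrophils and monocytes derived from bone marrow, of control and treated mice. The labels used here name no strain, age or genotype, nor the cells or stimulus of the Ics experiment, nor whether libraries of a group are separate mice or cultures. The p-values therefore reflect library-to-library spread, which may be technical.

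The 46 libraries held 18965434 to 43176793 estimated counts each. Levels are given as CPM, read counts scaled to a common library total. The markers of 9 of the 34 tissue libraries did not match the tissue label, by limits set with earlier results of these data known: haemoglobin genes at 10% or more of counts for blood, Krt5 plus Krt14 at 100 CPM or more for skin, and S100a8 plus S100a9 at 10000 CPM or more for neutrophils. Of 10 libraries labelled blood, 6 matched, 2 had skin markers, 1 had neutrophil markers and 1 had none of the 3, as monocyte libraries do. Of 10 labelled neutrophil, 2 had blood markers, as did 2 of 6 labelled skin, and 1 of 8 labelled monocyte had neutrophil markers. Matching monocyte libraries ranged from 3.67% to 82.7% mitochondrially coded counts, and matching blood libraries from 89.2% to 93.9% haemoglobin counts. Where a library's tissue label is in doubt its treatment label may be too, and that was not tested. Of 12 combinations of title series and number found in 2 or more tissues, 3 carried both treatments. They include neutrophil IVIG replicates 2 and 3 and neutrophil PBS replicate 3, whose markers match their tissue label. The labels do not say whether such a combination names a single mouse. All 12 Ics libraries had 28660 to 49450 CPM of S100a8 plus S100a9, above the neutrophil limit, with Krt5 and Krt14 at 0.

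In the Ics experiment the oxidase genes moved in different directions, while Sod1 and Sod2 rose at both later times and Cat at 6 h. Cybb, the catalytic core, fell while its membrane partner Cyba rose, clearly at 6 h and, for Cybb, by a small margin at 3 h. Sod2 rose most of the 9 genes, by 4.82 ± 0.139 on the log2 scale at 3 h (SE, n = 4 and 4 libraries). Cat did not pass the test at 3 h and rose by 2.65 ± 0.132 at 6 h. At 3 h, 8 of the 9 genes passed the test (edgeR quasi-likelihood, adjusted p under 0.05), where 54.4% of the 14996 genes tested did. At 6 h 8 of 9 passed against 0 h, where 60.0% of all tested genes did, and 8 of 9 passed between 6 h and 3 h, where 40.8% did. These backgrounds are high, and whether the number called among the 9 genes differs from them was not tested.

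**Figure D1:**
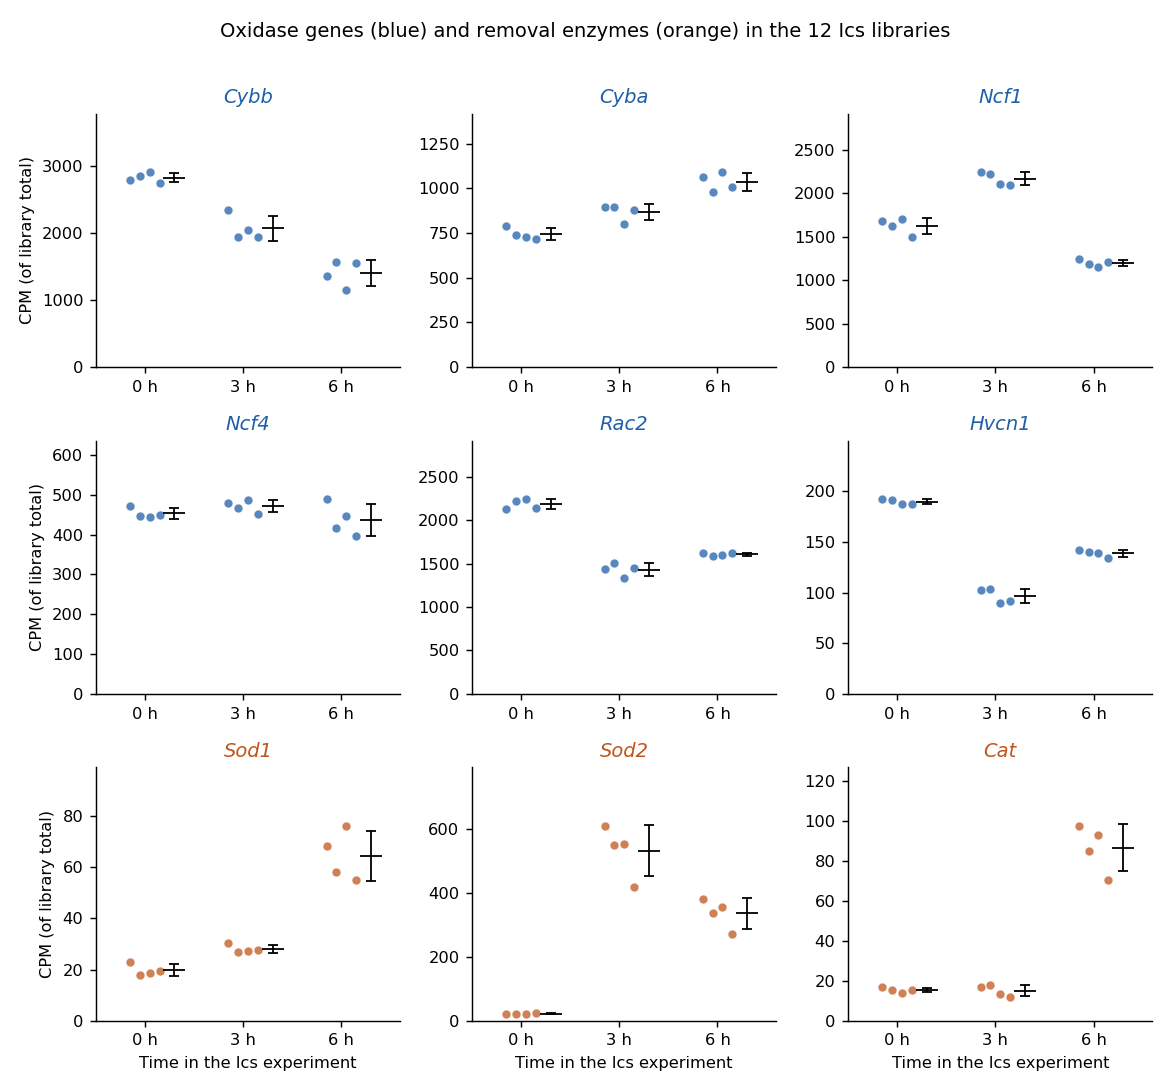
Level of each gene in CPM of the library total (vertical axis, from 0) in the 12 Ics libraries at 0 h, 3 h and 6 h (horizontal axis). Points are libraries, and the horizontal mark and bar beside them are the mean and SD over 4 libraries. Cybb steps down and Cyba up with time, Sod2 has its highest libraries at 3 h (417.9 to 609.4 CPM), and Cat stands apart at 6 h (70.7 to 97.6 CPM).

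Promoter sequences are shown for 4 genes with different time courses: Cybb falls throughout, Ncf1 is highest at 3 h and lowest at 6 h, Sod2 rises early, and Cat rises late. Each runs 5′ to 3′ over the 250 bases before the RefSeq start site (GRCm38.p6), on the gene's strand, and capitals mark matches, on either strand, of 4 motifs: GGAA, the core read by ETS-family factors such as the product of Spi1, GGGNNTTCC, a form of the NF-kB site, TGACNNNGC, the core of the antioxidant response element, and CCAAT.
Cybb, chrX:9469325-9469574, minus strand: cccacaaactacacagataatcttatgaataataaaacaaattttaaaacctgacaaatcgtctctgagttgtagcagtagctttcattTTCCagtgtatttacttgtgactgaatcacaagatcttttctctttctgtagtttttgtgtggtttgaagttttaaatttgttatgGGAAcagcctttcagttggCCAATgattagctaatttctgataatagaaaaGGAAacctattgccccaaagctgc
Ncf1, chr5:134229626-134229875, minus strand: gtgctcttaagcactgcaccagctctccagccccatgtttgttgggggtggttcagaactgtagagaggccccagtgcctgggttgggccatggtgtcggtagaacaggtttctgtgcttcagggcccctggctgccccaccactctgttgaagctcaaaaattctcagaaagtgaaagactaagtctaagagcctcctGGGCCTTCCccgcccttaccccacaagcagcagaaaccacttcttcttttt
Sod2, chr17:13007589-13007838, plus strand: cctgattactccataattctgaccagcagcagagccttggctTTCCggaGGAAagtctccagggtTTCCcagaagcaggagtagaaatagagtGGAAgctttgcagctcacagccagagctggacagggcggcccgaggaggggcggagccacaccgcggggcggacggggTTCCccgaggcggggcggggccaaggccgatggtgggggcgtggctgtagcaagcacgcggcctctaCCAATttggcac
Cat, chr2:103485154-103485403, minus strand: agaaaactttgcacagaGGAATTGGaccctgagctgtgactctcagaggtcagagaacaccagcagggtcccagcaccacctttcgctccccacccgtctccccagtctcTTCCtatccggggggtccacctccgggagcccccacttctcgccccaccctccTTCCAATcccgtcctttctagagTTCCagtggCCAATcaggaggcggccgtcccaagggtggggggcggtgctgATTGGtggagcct
Of the 9 genes, 6 had a promoter entry, and Ncf4, Rac2 and Hvcn1 did not. The Cybb window held 3 GGAA and 1 CCAAT match and was 34% G and C. In the Ncf1 window the single GGAA match, read as TTCC, lies inside the single GGGNNTTCC match, 51 to 43 bases before the start site. The Sod2 window held 5 GGAA matches and 1 CCAAT match 12 to 8 bases before the start site, and no GGGNNTTCC or TGACNNNGC. Other forms of the NF-kB site were not searched, so their absence from this or another window is not shown. The Cat window held 4 matches each of GGAA and CCAAT, with 2 pairs overlapping. Of the windows not printed, Sod1 held 3 GGAA, 1 TGACNNNGC and 1 CCAAT match, and Cyba 2 GGAA matches. Over 32851 promoters of the same length, 93.45% held GGAA, 33.85% CCAAT, 10.2% TGACNNNGC and 4.98% GGGNNTTCC. A match is a description of the letters in the window. The RefSeq start sites of Cybb and Sod2 lie inside the GENCODE gene bodies, so other starts of these genes are not covered.

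Cybb (gene body on chromosome X, 9435252 to 9487771, minus strand, in GENCODE on GRCm38) had 2789, 2850, 2904 and 2749 CPM at 0 h, 2338, 1941, 2039 and 1946 CPM at 3 h, and 1356, 1562, 1147 and 1547 CPM at 6 h. The 3 times did not overlap, and every later library was lower. Scaled by TMM, which sets the bulk of genes level between libraries, Cybb fell by 0.85 ± 0.078 on the log2 scale at 6 h against 0 h (adjusted p = 3.09e-07) and by 0.64 ± 0.078 at 6 h against 3 h (adjusted p = 1.27e-05). The fall at 3 h against 0 h was small under this scaling, 0.21 ± 0.077 (adjusted p = 0.0365). It did not pass with DESeq2-type (RLE) size factors (adjusted p = 0.0613) or with no expression filter (adjusted p = 0.0677). With the number in the titles as a block it did not pass either (adjusted p = 0.0565), nor in 6 of 8 fits without 1 library (adjusted p of those 0.0564 to 0.114). Scaled by library totals alone it was -0.45 (adjusted p = 0.000438).

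Cyba (chromosome 8, 122424776 to 122432930), the partner that stabilises Cybb in the membrane, had 791, 737.9, 725.8 and 714.2 CPM at 0 h, 893.1, 898.1, 799.9 and 876.7 CPM at 3 h, and 1065, 978.3, 1090 and 1007 CPM at 6 h. Here too the 3 times did not overlap, with the order turned round from that of Cybb. It rose by 0.47 ± 0.056 at 3 h (adjusted p = 5.56e-06) and by 0.64 ± 0.057 at 6 h (adjusted p = 1.95e-07) against 0 h. The rise of 0.17 ± 0.056 between 3 h and 6 h (adjusted p = 0.0242) did not pass without replicate 3 of 6 h (adjusted p = 0.083). Over the 12 Ics libraries the log2 CPM of Cyba and Cybb had a Pearson r of -0.95, a description of 3 groups of libraries that share their times.

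Among the cytosolic subunits, Ncf1 (chromosome 5, 134220053 to 134229625), the organiser that brings the complex to the membrane, had 1680, 1627, 1700 and 1493 CPM at 0 h, 2244, 2225, 2114 and 2102 CPM at 3 h, and 1240, 1189, 1153 and 1206 CPM at 6 h. All libraries at 3 h were highest and all at 6 h lowest. Ncf1 rose by 0.66 ± 0.049 at 3 h (adjusted p = 3.21e-08), and at 6 h it fell by 0.28 ± 0.049 against 0 h (adjusted p = 0.000186) and by 0.94 ± 0.049 against 3 h (adjusted p = 5.3e-09). Its exons share 408 bases with Gtf2ird2 on the other strand, a gene at 39.4 to 86.5 CPM in these libraries. The library protocol does not mark strand, so reads from the shared bases cannot be assigned.

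Ncf4 (chromosome 15, 78244801 to 78262580), which binds phosphoinositides and supports the oxidase on phagosomes, had 472.4, 445.7, 444.9 and 450.5 CPM at 0 h, 478.3, 468, 487.2 and 451.9 CPM at 3 h, and 489.3, 417.7, 446.7 and 396 CPM at 6 h. All 3 groups overlapped. Its TMM-scaled change was 0.30 ± 0.063 at 3 h (adjusted p = 0.000866), but 0.06 with library totals alone (adjusted p = 0.427). At 6 h against 0 h it was 0.11 ± 0.063 and did not pass (adjusted p = 0.14). It passed without replicate 2 of 6 h (0.17, adjusted p = 0.044), without replicate 4 of 6 h (0.17, adjusted p = 0.0303) and with the number in the titles as a block (0.14, adjusted p = 0.0468), and with library totals alone it was -0.05. The fall of 0.19 ± 0.063 between 3 h and 6 h (adjusted p = 0.0247) did not pass in 5 of 8 fits without 1 library (adjusted p of those 0.0513 to 0.141), nor with no expression filter or with library totals alone.

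Rac2 (chromosome 15, 78559167 to 78572783), the blood-cell GTPase of the active complex, had 2131, 2216, 2242 and 2135 CPM at 0 h, 1440, 1507, 1333 and 1447 CPM at 3 h, and 1627, 1584, 1600 and 1618 CPM at 6 h. Both later times lay below 0 h with no overlap. Rac2 fell by 0.36 ± 0.048 at 3 h (adjusted p = 1.77e-05) and by 0.28 ± 0.048 at 6 h (adjusted p = 0.000178). Between 3 h and 6 h its change of 0.08 ± 0.048 did not pass (adjusted p = 0.196) although the libraries did not overlap in CPM, and with library totals alone it was 0.17 (adjusted p = 0.00564). Rac2 and its paralog Rac1 are close in sequence, and how reads common to both were divided is not given in the sources used here.

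Hvcn1 (chromosome 5, 122206804 to 122242297), the proton channel, had 192.1, 191.5, 187.3 and 187.1 CPM at 0 h, 102.5, 103.3, 89.9 and 91.9 CPM at 3 h, and 142.2, 139.5, 139 and 133.7 CPM at 6 h. The 3 times did not overlap, and 3 h was lowest. It fell by 0.72 ± 0.053 at 3 h (adjusted p = 3.09e-08) and by 0.29 ± 0.053 at 6 h (adjusted p = 0.000262) against 0 h, and at 6 h it was higher than at 3 h by 0.43 ± 0.053 (adjusted p = 1.48e-05). Its exons share 1574 bases with Tctn1 on the other strand, at 10.4 to 24.6 CPM in the Ics libraries and 0 to 19.7 CPM in the tissue libraries.

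Of the removal genes, Sod2 (chromosome 17, 13006846 to 13040063) had 21.9, 20.7, 21.8 and 25.4 CPM at 0 h, 609.4, 548.9, 553.6 and 417.9 CPM at 3 h, and 381.7, 336.3, 355.5 and 270.6 CPM at 6 h. Every library at 3 h was above every library at 6 h, and these above all at 0 h. The rise of 4.82 at 3 h (28.1-fold, adjusted p = 3.91e-12) put Sod2 above 99.7% of the 14996 tested genes in log2 change. At 6 h the rise against 0 h was 4.07 ± 0.135 (adjusted p = 1.13e-11), and against 3 h Sod2 fell by 0.75 ± 0.117 (adjusted p = 0.000136).

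Sod1 (chromosome 16, 90220754 to 90226329) had 23.1, 18, 18.7 and 19.6 CPM at 0 h, 30.5, 26.8, 27.1 and 27.7 CPM at 3 h, and 68.5, 58, 76.2 and 54.9 CPM at 6 h. The 3 times did not overlap, and most of the rise lay between 3 h and 6 h. Sod1 rose by 0.75 ± 0.11 at 3 h (adjusted p = 4.43e-05), by 1.86 ± 0.111 at 6 h against 0 h (adjusted p = 3.05e-09) and by 1.12 ± 0.108 at 6 h against 3 h (adjusted p = 1.5e-06).

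Cat (chromosome 2, 103453849 to 103485160) had 16.7, 15.4, 14.1 and 15.4 CPM at 0 h, 16.7, 17.8, 13.7 and 11.7 CPM at 3 h, and 97.6, 85.1, 93.1 and 70.7 CPM at 6 h. The libraries at 0 h and 3 h overlapped, and all at 6 h stood above them. At 3 h the change of 0.20 ± 0.131 did not pass (adjusted p = 0.206). It passed without replicate 4 of 3 h (0.31, adjusted p = 0.0478), and it was -0.04 with library totals alone. At 6 h Cat rose by 2.65 ± 0.132 against 0 h (6.29-fold, adjusted p = 5.03e-10) and by 2.45 ± 0.131 against 3 h (adjusted p = 6.1e-09). The change between 3 h and 6 h lay above 99.8% of tested genes.

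Set side by side, 3 of the 6 oxidase genes rose and 3 fell at 3 h, with a median change of 0.05, and 2 of 3 removal genes rose, with a median of 0.75. The median over all tested genes was -0.06. At 6 h against 0 h, 1 oxidase gene rose, 4 fell and 1 did not pass, with a median of -0.28, and all 3 removal genes rose, with a median of 2.65, where all tested genes had a median of -0.06. Between 6 h and 3 h, 2 oxidase genes rose, 3 fell and 1 did not pass, and among the removal genes Sod1 and Cat rose and Sod2 fell. The scaling matters for the smaller changes. The TMM factors were 1.08 to 1.12 at 0 h, 0.912 to 0.951 at 3 h and 0.948 to 1 at 6 h, and leaving them out lowered the median of all genes by 0.25 at 3 h and by 0.16 at 6 h against 0 h and raised it by 0.08 between 6 h and 3 h. Of the genes called at 3 h, 49.4% rose with TMM and 29.8% with library totals alone, and at 6 h against 0 h 49.3% and 37.4%. At 6 h against 3 h, 50.1% rose with TMM and 61.7% with library totals alone. Within the 9 genes, the choice reversed the uncalled changes of Cat at 3 h and Ncf4 at 6 h.

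**Figure D2:**
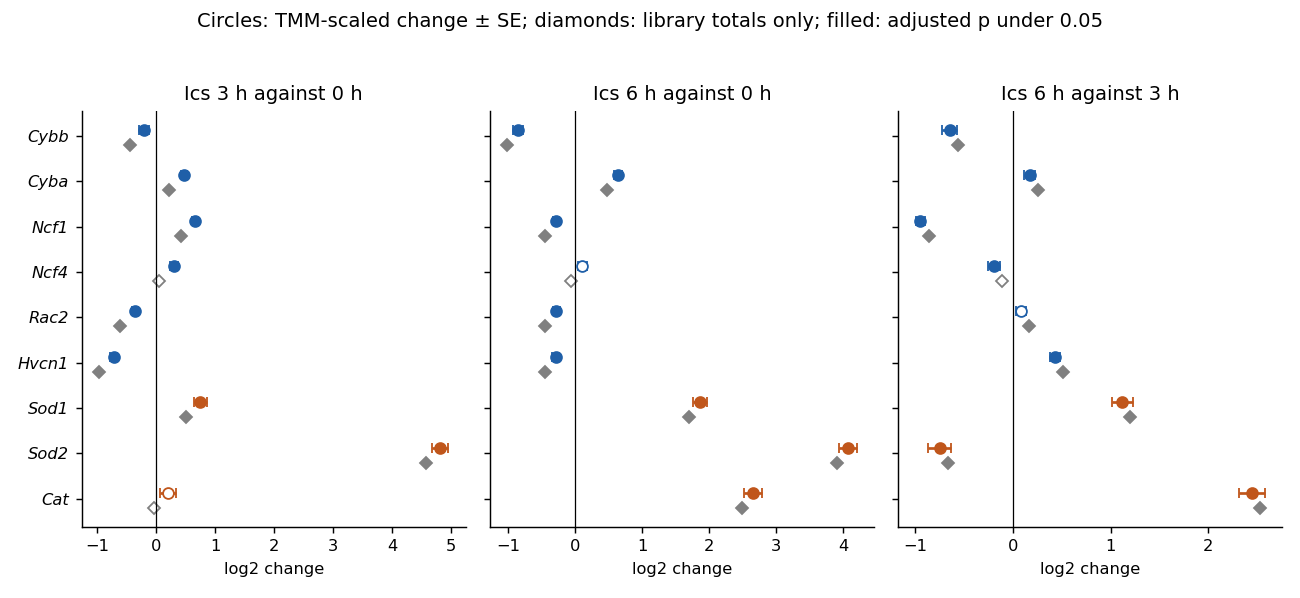
Change of each gene on the log2 scale (horizontal axis) for the 3 pairs of times, with the genes down the page. Circles with bars are TMM-scaled edgeR changes and their SE, diamonds are changes scaled by library totals alone, and filled symbols passed at adjusted p under 0.05. The removal genes (orange) lie right of 0 at 6 h against 0 h, while the oxidase genes (blue) lie on both sides.

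The summed level of 9 neutrophil markers also moved with time, at 91520 to 100300 CPM at 0 h, 66950 to 81000 CPM at 3 h and 53730 to 59980 CPM at 6 h. The 4 macrophage markers summed to 28.1 to 32.9, 124.4 to 158 and 168 to 189.9 CPM at 0, 3 and 6 h, nearly all of it Adgre1, with C1qa and C1qb at 0 in all 6 h libraries. The 6 monocyte markers summed to 752.5 to 850.8, 763.3 to 807.7 and 721.3 to 787 CPM at 0, 3 and 6 h, ranges that overlapped. Among them the median of Csf1r rose from 151.7 CPM at 0 h to 498.2 CPM at 6 h. That of Ly6c2 fell from 614.2 to 249.7 CPM. The 7 red cell markers were at 114.5 to 296.5 CPM at 0 h and 8.19 to 19.6 CPM at 6 h. The part of these shifts in the changes above was not tested. In bulk RNA, fewer cells of a type and less RNA per cell cannot be told apart.

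Around the 9 genes, 5 lists with 67 genes were counted. Of all tested genes, 26.9% rose and 27.5% fell at 3 h, 29.6% rose and 30.4% fell at 6 h against 0 h, and 20.4% rose and 20.3% fell at 6 h against 3 h. Among 13 other oxidase parts and relatives, 4 were high enough to test in the Ics experiment, and Noxo1, Noxa1, Nox1, Nox3, Nox4 and the 4 Duox genes and their maturation factors were not. At 3 h 2 of the 4 rose and 1 fell. Cybc1, a chaperone needed for Cybb and Cyba protein, fell by 0.16 ± 0.056 at 3 h (adjusted p = 0.0295), a call lost in 5 of 8 fits without 1 library, and its change at 6 h against 0 h of 0.12 ± 0.056 did not pass with edgeR but did with DESeq2 (0.15, adjusted p = 0.0261), and was -0.05 with library totals alone. Rac1 rose by 0.29 ± 0.057 at 3 h (0.04 and not passing with library totals alone) and by 0.50 ± 0.057 at 6 h against 0 h. The GTPase gene Rap1a rose by 0.17 ± 0.062 at 3 h (adjusted p = 0.0286), a call lost in 5 of 8 fits without 1 library, and was -0.07 with library totals alone. At 6 h against 0 h it was 0.06 ± 0.062 with TMM and -0.10 with library totals alone. At 6 h against 0 h 1 of the 4 rose, and between 6 h and 3 h Cybc1 and Rac1 rose.

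Of 18 activators of the oxidase, 10 rose and 6 fell at 3 h (median change 0.22), 11 rose and 4 fell at 6 h against 0 h (median 0.35), and 7 rose and 4 fell at 6 h against 3 h. At 3 h the phosphoinositide kinase gene Pik3cg rose by 0.99 ± 0.058 (adjusted p = 2.88e-09), the tyrosine kinase gene Syk by 0.61 ± 0.049 and the GTPase gene Rhog by 0.68 ± 0.061. Prkcb, a protein kinase C that phosphorylates the Ncf1 protein, fell by 0.54 ± 0.047 at 3 h, with 88 ± 3.83 CPM at 3 h and 152.3 ± 3.74 CPM at 0 h, and rose by 0.51 ± 0.046 at 6 h against 0 h, with 193.6 ± 8.3 CPM at 6 h. Vav3 and Dock2, which code exchange factors for Rac, rose by 0.77 ± 0.06 and 0.71 ± 0.058 between 3 h and 6 h, while Pik3cg fell by 0.54 ± 0.058. At 6 h against 0 h Vav3 rose by 0.92 ± 0.06, Rhog by 0.86 ± 0.061 and Syk by 0.50 ± 0.049.

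Of 24 other genes for removing peroxide and superoxide, 21 were tested, of which 13 rose and 5 fell at 3 h (median 0.28), 14 rose and 4 fell at 6 h against 0 h (median 0.36), and 8 rose and 5 fell at 6 h against 3 h. Sod3, Gpx7 and Gpx8 were too low to test. Srxn1, which repairs over-oxidised peroxiredoxins, had 240 ± 11.6 CPM at 3 h and 4.84 ± 1.34 CPM at 0 h, a rise of 5.88 ± 0.209 (adjusted p = 2.12e-11). The glutathione synthesis gene Gclm rose by 3.12 ± 0.115 at 3 h and 3.94 ± 0.119 at 6 h, and the thioredoxin reductase gene Txnrd1 by 3.44 ± 0.132 and 3.69 ± 0.133. Prdx6 rose by 1.10 ± 0.061 at 3 h. Prdx1, a peroxiredoxin gene, averaged 7.65 ± 1.62 CPM at 0 h, 47.2 ± 5.96 CPM at 3 h and 486.4 ± 136.4 CPM at 6 h, with a rise of 3.29 ± 0.191 between 3 h and 6 h. Between 3 h and 6 h Gss rose by 1.70 ± 0.171 and Gpx4 by 0.75 ± 0.062, and Glrx fell by 0.60 ± 0.051. Srxn1 was 5.94 ± 0.209 higher at 6 h than at 0 h.

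The list named users of peroxide had 3 tested genes, the peroxidase genes Mpo and Epx and also Padi4, which codes no peroxidase. Mpo, for the peroxidase of primary granules, fell by 1.43 ± 0.349 at 3 h (adjusted p = 0.00291), and at 6 h by 3.67 ± 0.394 against 0 h. Epx, below 3 CPM throughout, fell at 6 h against 0 h by 1.26 ± 0.474 (adjusted p = 0.0328), with overlapping libraries and a call lost in 5 of 8 fits without 1 library (-1.91 to -0.91). Padi4, whose enzyme citrullinates histones, changed by 0.01 ± 0.039 at 3 h (-0.23 with library totals alone, adjusted p = 5.93e-05) and rose by 0.38 ± 0.039 at 6 h against 0 h and 0.37 ± 0.039 against 3 h. Mpo fell by 2.24 ± 0.385 at 6 h against 3 h. Of 8 transcription factor genes known to act on oxidase genes, 5 rose and 3 fell at 3 h, 1 rose and 4 fell at 6 h against 0 h, and 2 rose and 5 fell at 6 h against 3 h. Cebpa rose at both times, by 1.12 ± 0.083 and 1.62 ± 0.083, and by 0.50 ± 0.081 between them. Irf1 rose by 0.92 ± 0.063 at 3 h, fell by 1.21 ± 0.064 at 6 h against 3 h, and fell by 0.29 ± 0.063 at 6 h against 0 h. Spi1, which codes the ETS factor of myeloid cells, rose by 0.45 ± 0.046 at 3 h and fell by 0.38 ± 0.046 between 3 h and 6 h, as Elf1 did by 0.28 ± 0.053, and Cebpe fell by 0.96 ± 0.088 at 6 h against 0 h. At 3 h every list had members on both sides of 0, and no list was tested as a set.

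The 5 genes whose log2 CPM followed that of Cybb most closely over the 12 Ics libraries, of 8327 genes with a mean of at least 5 CPM, were Megf9, Abca13, Man2a1, Slc39a11 and Cpne3, with Pearson r of 0.984 to 0.986. For Sod2 they were Nfkb2, Fas, Pim2, Spp1 and Nab1, with r of 0.997 to 0.998. Nfkb2, for an NF-kB subunit, averaged 46.8, 466.9 and 340.4 CPM at 0, 3 and 6 h. These are descriptions over libraries that fall into 3 times.

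Across tissues, using the 25 libraries whose markers match their label, all 6 oxidase genes were higher in neutrophils than in monocytes and than in skin, and catalase was lower in neutrophils than in both. In CPM of all counts, skin had the highest catalase and Sod2 of the 4 tissues and blood the lowest level of 8 of the 9 genes. Without haemoglobin genes in the total, catalase in blood overlapped skin, at 263.3 to 699.5 CPM. In that total the blood means of Ncf1, Ncf4 and Rac2 were 87.1, 80.8 and 352.5 CPM, against 62.3, 25.9 and 149.8 CPM in skin. Those of Hvcn1 and Sod2 were 167.6 and 47 CPM, against 154.3 and 42 CPM in neutrophils, with overlapping libraries. Blood still had the lowest means of Cybb, Cyba and Sod1, at 108.9, 150.9 and 119 CPM. The monocyte class rests on the absence of the other tissues' markers. The 6 monocyte markers summed to 1613 to 2720 CPM in neutrophil libraries, inside the range of 774.7 to 6746 CPM in monocyte libraries. The 9 neutrophil markers summed to 89650 to 156300 CPM in neutrophil libraries and 1744 to 18040 CPM in monocyte libraries. S100a8 and S100a9 are among these 9 and also sorted the libraries, so part of that gap follows from the rule. The part of the overlap in monocyte markers in the differences was not tested. Between neutrophils and monocytes 7 of the 9 genes passed, where 27.3% of 18047 tested genes did. Between neutrophils and skin 8 of 9 passed, where 60.2% did, and between monocytes and skin 7 of 9, where 53.1% did. Blood against neutrophils had 7 of 9, where 42.8% passed. The median change of the 6 oxidase genes was 1.59 in neutrophils against monocytes, where that of all tested genes was 0, and 3.00 in neutrophils against skin, where it was -0.22.

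**Figure D3:**
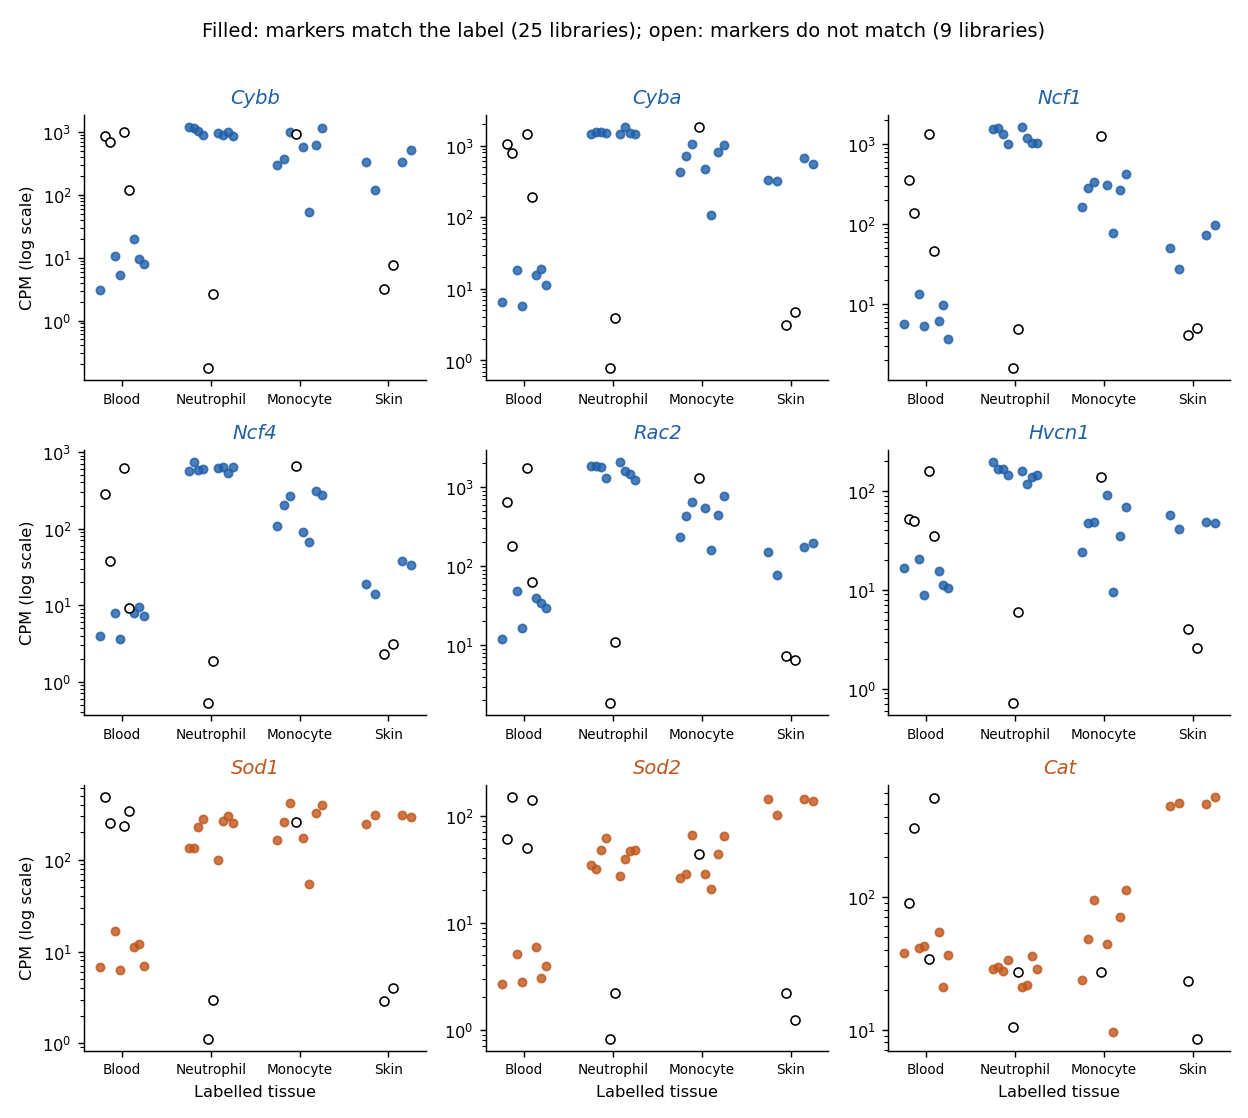
Level of each gene in CPM (vertical axis, log scale) in the 34 libraries labelled blood, neutrophil, monocyte or skin (horizontal axis). Filled points are the 25 libraries whose markers match the label and open points the 9 whose markers do not. The open points lie apart from the filled ones of the same label for most genes, for example Cybb at 0.174 and 2.69 CPM in 2 libraries labelled neutrophil.

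Cybb ran from 876 through a median of 996.4 to 1231 CPM in 8 neutrophil libraries, and from 53.3 through 575 to 1151 CPM in 7 monocyte libraries. In skin it had 330.5, 119.5, 332.5 and 519.5 CPM. Neutrophils and monocytes overlapped, as did monocytes and skin. The difference of 0.88 ± 0.274 between neutrophils and monocytes passed (adjusted p = 0.0181), but not without the 4 monocyte libraries of 30% or more mitochondrial counts (0.58, adjusted p = 0.22), with limma voom and quality weights (0.49, adjusted p = 0.0581), or with all 34 libraries as labelled (0.42, adjusted p = 0.679). Those 4 libraries had 53.3 to 575 CPM of Cybb and the other 3 had 619.9 to 1151 CPM. Against skin, Cybb was higher in neutrophils by 2.05 ± 0.355 (adjusted p = 1.96e-05) and in monocytes by 1.18 ± 0.344 (adjusted p = 0.0054). The 4 macrophage markers summed to 21.7 to 41.4 CPM in neutrophils, 11.5 to 114.8 CPM in monocytes and 1448 to 3482 CPM in skin, where C1qa was at 423.2 to 960.7 CPM, and their part in the skin levels was not tested.

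Cyba was at 1441 to 1835 CPM in neutrophils (median 1500) and 108.9 to 1044 CPM in monocytes (median 725), with no overlap, a difference of 1.19 ± 0.196 (adjusted p = 4.7e-05). In skin it had 333.1, 316.4, 663.5 and 550.4 CPM, overlapping monocytes. Neutrophils were 2.11 ± 0.252 above skin (adjusted p = 8.84e-08) and monocytes 0.92 ± 0.24 above it (adjusted p = 0.00219).

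Of the cytosolic subunits, Ncf1 was at 1007 to 1656 CPM in neutrophils (median 1272), 77.1 to 419.5 CPM in monocytes (median 281.4), and 50.9, 27.4, 73.8 and 97 CPM in skin. Neutrophils stood clear of both, 2.16 ± 0.262 above monocytes (adjusted p = 7.39e-07) and 4.81 ± 0.382 above skin (28-fold, adjusted p = 9.08e-11). Ncf4 was at 537.6 to 743.6 CPM in neutrophils (median 605.1), 66.1 to 306.8 CPM in monocytes (median 201.8), and 18.7, 13.8, 37.4 and 33.5 CPM in skin, with no overlap among the 3. It was 1.57 ± 0.227 higher in neutrophils than in monocytes (adjusted p = 9.34e-06), 4.97 ± 0.342 higher in neutrophils than in skin (adjusted p = 7.74e-12) and 3.40 ± 0.315 higher in monocytes than in skin (adjusted p = 2.41e-09). Ncf1 in monocytes was 2.64 ± 0.34 above skin (adjusted p = 4.18e-07), with ranges that overlapped. Gtf2ird2, which shares 408 exonic bases with Ncf1, was at 0.169 to 235.2 CPM over all 34 tissue libraries. The part of shared reads in the Ncf1 differences was not tested.

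Rac2 was at 1225 to 2077 CPM in neutrophils (median 1708), 158.9 to 777.2 CPM in monocytes (median 437.7), and 151, 76.7, 175.8 and 195.5 CPM in skin. It was higher in neutrophils by 1.69 ± 0.239 than in monocytes (adjusted p = 7.09e-06) and by 3.88 ± 0.337 than in skin (adjusted p = 4.22e-10), and higher by 2.20 ± 0.308 in monocytes than in skin. Hvcn1 was at 117.9 to 196.8 CPM in neutrophils (median 152), 9.62 to 91 CPM in monocytes (median 47.7) and 57, 40.9, 48.2 and 47.6 CPM in skin. Monocytes and skin overlapped and did not pass (0.48 ± 0.269, adjusted p = 0.136), and neutrophils stood clear of both, by 1.60 ± 0.226 and 2.08 ± 0.287.

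The removal genes had another order. Cat was at 20.8 to 35.7 CPM in neutrophils (median 28.5), 9.63 to 111.8 CPM in monocytes (median 47.8), and 481.4, 506.2, 499.5 and 562.2 CPM in skin. Skin stood far above both. Cat was lower in neutrophils by -3.80 ± 0.226 than in skin (adjusted p = 4.99e-13), by -1.01 ± 0.194 than in monocytes (adjusted p = 0.000283), and lower in monocytes than in skin by -2.79 ± 0.231. Sod2 was at 27 to 61.7 CPM in neutrophils (median 42.9), 20.7 to 65.6 CPM in monocytes (median 28.4), and 142.1, 100.5, 142.3 and 136 CPM in skin. Neutrophils and monocytes overlapped (-0.21 ± 0.204, adjusted p = 0.478, and 0.12 without replicate 3 of monocyte PBS), and both were below skin, by -1.26 ± 0.233 and -1.05 ± 0.241. Sod1 overlapped in all 3, at 100.5 to 299.6 CPM in neutrophils, 55 to 420.4 CPM in monocytes and 244.6, 310.8, 311.8 and 296.4 CPM in skin, and none of its 3 differences passed (adjusted p = 0.122 to 0.65). The one between neutrophils and monocytes, -0.38, did pass with DESeq2 (-0.47, adjusted p = 0.0335), without replicate 2 of monocyte PBS (-0.50, adjusted p = 0.0421) and with the title series and number as a block in limma voom (-0.43, adjusted p = 0.0474). The 4 monocyte libraries of 30% or more mitochondrial counts had 55 to 256.3 CPM of Sod1. The other 3 had 323 to 420.4 CPM, above all neutrophil and skin libraries. For Cat the 4 had 9.63 to 47.8 CPM and the 3 had 71 to 111.8 CPM, above all neutrophil libraries. For Sod2 they had 20.7 to 28.4 and 44.1 to 65.6 CPM.

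In the 6 matching blood libraries Cybb was at 3.11 to 19.8 CPM, Ncf1 at 3.7 to 13.4 CPM, Sod2 at 2.69 to 5.91 CPM and Cat at 21.1 to 53.9 CPM. Haemoglobin genes take most counts in these libraries. In CPM of the counts that remain without them, the mean over the 6 libraries was 108.9 ± 47.5 CPM for Cybb, 87.1 ± 29.9 CPM for Ncf1, 47 ± 8.97 CPM for Sod2 and 485.3 ± 149.7 CPM for Cat (SD). By the TMM-scaled test, 5 oxidase genes were lower in blood than in neutrophils, from -2.16 for Rac2 to -3.81 for Ncf1, and Hvcn1 did not pass (0.22 ± 0.228, adjusted p = 0.479, and -0.02 without replicate 1 of blood IVIG). Cat was higher in blood by 4.25 ± 0.219 (adjusted p = 2.94e-14), although its CPM of all counts overlapped between the tissues. Sod1 was lower by -0.68 ± 0.193 (adjusted p = 0.00518), which did not pass with RLE size factors (-0.42, adjusted p = 0.0753), and Sod2 did not pass (0.29 ± 0.215, adjusted p = 0.303) but did with them (0.55, adjusted p = 0.0451). Red cells carry much catalase, and 7 red cell markers summed to 896400 to 942500 CPM in these blood libraries, against 73.4 to 960 CPM in neutrophils. Their part in the Cat level was not tested.

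The tissue differences rest on leaving out the 9 libraries whose markers do not match. With all 34 as labelled, 1 of the 9 genes passed between neutrophils and monocytes (Hvcn1, 1.25), 7 between neutrophils and skin, 5 between monocytes and skin and 5 between blood and neutrophils. Over all genes fewer were called in that setting too in each of these comparisons, 1402 in place of 4929 between neutrophils and monocytes and 4659 in place of 7718 between blood and neutrophils. Cat turned to 1.91 in neutrophils against monocytes without passing (adjusted p = 0.101). In neutrophils against skin it was -1.20 (adjusted p = 0.202), and in blood against neutrophils 1.05 (adjusted p = 0.251). Singly, the library labelled blood, PBS, replicate 1 had 1026 CPM of Cybb and 1326 CPM of Ncf1, inside the range of the neutrophil libraries. The libraries labelled neutrophil, IVIG, replicate 5 and neutrophil, PBS, replicate 1 had 0.174 and 2.69 CPM of Cybb, below all matching blood libraries.

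The other lists in the tissues were counted in the same 25 libraries. Of all tested genes, 15.4% rose and 12.0% fell in neutrophils against monocytes, 25.0% and 35.2% in neutrophils against skin, 21.0% and 32.1% in monocytes against skin, and 21.0% and 21.8% in blood against neutrophils. In neutrophils against monocytes 1 of 9 tested oxidase parts and relatives rose and 0 fell. Of 18 activators 8 rose and 1 fell, and of 24 other removal genes 5 rose and 4 fell. Of 3 genes listed as users of peroxide 1 rose (Padi4) and 1 fell (Epx). Of 8 transcription factor genes 5 rose and 1 fell. Rac1 (0.26), Nox4 (-1.01) and Noxo1 (0.25) did not pass, and Rac1 and Noxo1 reversed without the libraries of high mitochondrial share (-0.04 and -0.21). Arhgdib was 1.38 ± 0.154 higher, Prkcb 1.62 ± 0.224, Rhog 1.24 ± 0.184, Glrx 2.31 ± 0.249, Prdx5 1.72 ± 0.201, the glutathione reductase gene Gsr 1.65 ± 0.226 and Txn1 1.43 ± 0.196. Padi4 was 3.21 ± 0.4 higher, with Cebpb at 1.54 ± 0.263, Spi1 at 1.07 ± 0.197 and Irf1 at 0.91 ± 0.186. Prkca (-3.37 ± 0.566), Epx (-5.80 ± 1.42, with overlapping libraries) and Irf8 (-1.17 ± 0.222) were lower, and Mpo did not pass (-0.63).

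In neutrophils against skin 2 of 9 oxidase parts and relatives rose and 4 fell, and 13 of 18 activators rose and 1 fell. Of 24 other removal genes 7 rose and 9 fell, and 2 of 3 genes listed as users of peroxide rose (Mpo and Padi4). Of the transcription factor genes 5 rose and 1 fell. Among the oxidase relatives, 3 genes of other oxidases were lower: Duox1 averaged 0.00158 CPM in neutrophils, against 5.09 ± 4.43 CPM in skin (SD, n = 4), Duoxa1 0.00664 against 4.20 ± 2.57 CPM, and Nox4 0.0848 against 3.83 ± 2.25 CPM. Gsr was 5.39 ± 0.348 higher and Prdx5 2.99 ± 0.269, while the secreted enzymes Gpx3 (-5.66 ± 0.344) and Sod3 (-8.50 ± 0.71) were lower. Arhgdib (3.65), Prkcb (3.12), Rhog (2.50), Pik3cd (2.70), Mpo (11.34), Padi4 (5.52), Cebpb (3.78), Spi1 (2.39) and Cebpe (6.41) were higher, Cebpa was lower (-1.83), and Epx was listed at 0 in all 4 skin libraries. In monocytes against skin the counts that rose and fell were 2 and 4 of 9, 11 and 0 of 18, 4 and 8 of 24, 3 and 0 of 3, and 4 and 2 of 8 in the same order of lists. In blood against neutrophils they were 2 and 1, 2 and 11, 10 and 7, 0 and 2, and 3 and 4.

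Between IVIG and PBS none of the 9 genes passed in any labelled tissue. The share of all tested genes called by edgeR was 0% in each: 0 of 11339 in blood, 0 of 14033 in neutrophils, 0 of 14415 in monocytes and 0 of 16171 in skin. At an unadjusted p under 0.05 there were 81, 73, 286 and 157 genes, DESeq2 called 1, 5, 3 and 8 and limma voom with quality weights 1, 0, 0 and 0, none of them one of the 9. Changes of the 9 genes ranged from -1.02 to 0.31 in blood, -0.21 to 0.16 in neutrophils, -0.79 to 0.23 in monocytes and -1.19 to 0.32 in skin.

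**Figure D4:**
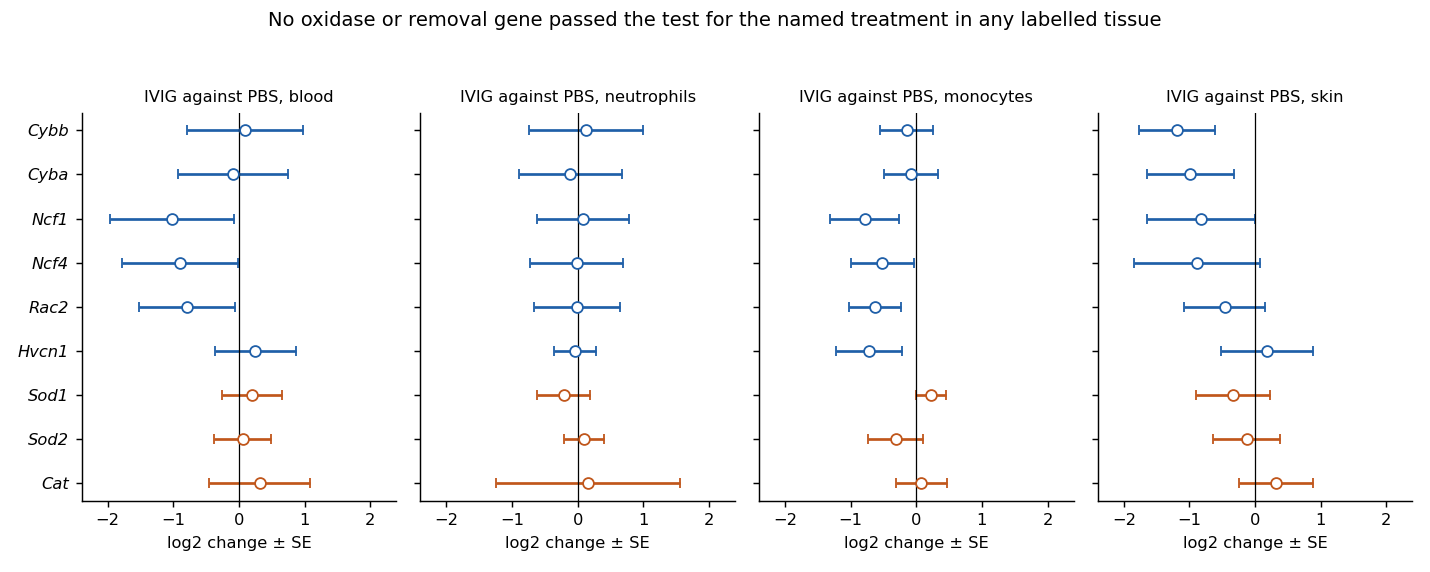
Change of each gene on the log2 scale with IVIG against PBS (horizontal axis, with SE bars) in the 4 labelled tissues, with all libraries of each label. Open circles did not pass, which is all of them, and most bars cross 0.

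Cybb in skin had the most negative of these changes, with 330.5, 119.5 and 3.17 CPM in the IVIG libraries, against 7.73, 332.5 and 519.5 CPM in the PBS libraries. The groups overlapped, and the lowest library of each had blood markers. The change was -1.19 ± 0.576 (adjusted p = 1), and -1.03 (adjusted p = 0.675) over the 4 libraries with skin markers. In blood Cybb had 3.11, 874.9, 701.8, 10.8 and 5.35 CPM with IVIG, against 1026, 122.4, 19.8, 9.59 and 7.82 CPM with PBS. The highest 2 of each group did not have blood markers, and its change of 0.10 ± 0.887 was -0.68 (adjusted p = 0.771) over the 6 that did. In neutrophils it had 1231, 1151, 1056, 890.6 and 0.174 CPM with IVIG, against 2.69, 978.9, 901.1, 1014 and 876 CPM with PBS (0.13 ± 0.866). In monocytes the values were 302.5, 374.9 and 1016 CPM with IVIG, against 926.4, 575, 53.3, 619.9 and 1151 CPM with PBS (-0.15 ± 0.408).

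Sod2 had 34.3, 31.8, 47.8, 61.7 and 0.825 CPM in neutrophils with IVIG, against 2.19, 27, 39.2, 46.5 and 47.7 CPM with PBS, groups that overlapped (0.10 ± 0.304). Its change was 0.06 ± 0.432 in blood, -0.31 ± 0.42 in monocytes and -0.13 ± 0.511 in skin, with adjusted p of 0.999 or more in edgeR. In all 4 tissues the SE was larger than the change of Sod2, and the absence of a difference is not shown. These fits keep the libraries whose markers do not match their label, which are part of the spread. What size of difference these fits could detect is not reported here.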

How the data were processed

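Bulk RNA of 46 libraries was sequenced. Per the submitters' processing notes, kallisto 0.46.1 and GRCm38 were used, and the deposited table holds the authors' estimated counts (expected counts of a length-scaled form) for 46264 gene symbols, with each library keeping its own total. The scaling tool, the annotation and any filter are not given in the sources used here. Tissue, condition and title gave the groups. In 34 libraries the treatment field said otherwise than the condition, and it was not used. Among 1035 library pairs 0 were identical.

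Counts were rounded to whole numbers. Genes were compared in R 4.3.3 with edgeR 4.0.16 (glmQLFit and glmQLFTest, two-sided), after TMM scaling and filterByExpr at its minimum count of 10. Calls are at 0.05 after Benjamini-Hochberg adjustment across every gene in the fit. Unless another tool is named, an adjusted p is from edgeR, and the SE is the size of the log2 change divided by the square root of F. The 3 Ics times were fitted together, as were the 25 tissue libraries whose markers match their label, while IVIG was set against PBS over all libraries of a label. Alternatives were DESeq2 1.42.0, limma 3.58.1 (voom with quality weights), RLE scaling, no filter, all libraries as labelled or only matching ones, covariates, replicate blocks, no haemoglobin genes, and fits without 1 library at a time. Library totals without TMM, no mitochondrially coded genes, and no libraries of 30% or more mitochondrial counts were chosen after seeing the data. The fits were tested on simulated data.

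The 9 genes, the marker rule and the lists were chosen with earlier results of these data known. Named besides the 9 were up to 4 tested genes of each list by smallest p in the Ics comparisons and in neutrophils against monocytes and skin, and the 5 genes most like Cybb and Sod2 by r of log2(CPM + 1). A few genes that this rule names are not reported here. Epx, Nox4 and the like were named by this rule whatever their level. Gene positions come from GENCODE and promoters from RefSeq (GRCm38.p6). Estimated counts are not independent molecules, and their depth bounds counting error only.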

Additional observations from a re-analysis of the deposited data

Results flagged for a closer look

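In groups of 4 to 10 libraries the highest or lowest library was compared with the others by Dixon's criterion, which chance meets in about 1 of 20 groups. Over the 9 genes and the groups of 4 or 5 libraries, 21 of 72 tests met it, where chance gives 3.6 for independent tests. All 21 lay in libraries whose markers do not match their tissue label. The 9 genes share the same libraries, so the tests are not independent. These libraries were already known to differ by their markers, so the count describes that mismatch and is no separate finding. No Ics library was among them.

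Among libraries labelled blood, replicate 1 of PBS (neutrophil markers) stood above the others of its group with 1468 CPM of Cyba, 1026 of Cybb, 161 of Hvcn1, 1326 of Ncf1, 620.4 of Ncf4 and 1719 of Rac2. Replicate 2 of blood PBS (skin markers) had 552.2 CPM of Cat, and replicate 3 of blood IVIG (skin markers) had 328.8 CPM of it. Replicate 2 of blood IVIG, with no blood, skin or neutrophil markers, had 283.2 CPM of Ncf4 and 650.4 CPM of Rac2.

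In neutrophil IVIG, replicate 5 (blood markers) lay below its group with 10.4 CPM of Cat, 0.782 of Cyba, 0.174 of Cybb, 0.714 of Hvcn1, 0.52 of Ncf4 and 1.84 of Rac2. Replicate 1 of neutrophil PBS (blood markers) had 3.96 CPM of Cyba, 2.69 of Cybb, 5.94 of Hvcn1 and 1.84 of Ncf4. Replicate 1 of monocyte PBS (neutrophil markers) had 1260 CPM of Ncf1, where the other 4 had 77.1 to 419.5.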

How the results depend on the processing

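Over the Ics comparisons, 201 of 216 values of the 9 genes without 1 library kept direction and side of the threshold, as did 152 of 162 under other alternatives. With library totals alone Cat at 3 h (-0.043), Ncf4 at 6 h (-0.052), Padi4 (-0.23) and Rap1a (-0.074) at 3 h, and Cybc1 (-0.047) and Rap1a (-0.10) at 6 h against 0 h changed sign, by the construction of that scaling. With all libraries as labelled, neutrophils against monocytes had 1402 genes called in place of 4929 and 1 of the 9 in place of 7, with Cat at 1.91. Blood against neutrophils had 4659 in place of 7718, with Hvcn1 at -0.086 and Sod1 at 0.051, and monocytes against skin had Hvcn1 at -0.055. Limma voom with quality weights called 11611 in blood against neutrophils, and gave Noxo1 (-0.15) and Rac1 (-0.047) in neutrophils against monocytes and Sod1 (0.025) in neutrophils against skin the other sign. Sod1 there was 0.0046 without haemoglobin genes. Without libraries of high mitochondrial share Noxo1 was -0.21 and Rac1 -0.044. Leaving out 1 library gave -0.35 to 0.12 for Sod2 in neutrophils against monocytes and -0.018 to 0.29 for Hvcn1 in blood against neutrophils.

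For IVIG against PBS, genes called were 1 (blood), 5 (neutrophils), 3 (monocytes) and 8 (skin) with DESeq2, 1 in blood with limma voom, and 5 in blood and 4 in skin over matching libraries, in place of 0. Changes that did not pass and turned sign were Cybb in blood (-0.54 with voom, -0.68 over matching libraries, and -0.40 to 1.24 without 1 library) and in neutrophils (-0.16 to 0.44 without 1 library). For Sod2 they were -0.0016 (voom), -0.026 (matching libraries) and -0.37 to 0.42 in blood, -0.14 (voom), -0.00091 (title series as covariate) and -0.071 to 0.26 in neutrophils, 0.15 (voom), 0.078 (title series) and -0.44 to 0.097 in monocytes, and -0.45 to 0.10 in skin. The cause of these changes was not tested.

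The m numbers of the Ics titles were checked as pairs. Deviations of same-numbered libraries had r of 0.048 to 0.18, over 0.1 in 8 of 12 pairs. Libraries of other numbers had r of -0.098 to 0.017. Each library had its highest r with its own number in 24 of 24 cases, so same-numbered libraries did vary together. The main fits leave this pairing out, since no document states a model, and the block is an alternative. With the m number as replicate block, 8462, 9403 and 6382 genes were called in place of 8163, 8999 and 6117, and 7, 9 and 8 of the 9 genes. Cybb at 3 h did not pass (adjusted p = 0.0565), and Ncf4 at 6 h against 0 h did (0.14, adjusted p = 0.0468). With the title series and number as replicate block in limma voom, 8, 8, 7 and 6 of the 9 genes passed in the 4 tissue comparisons, in place of 7, 8, 7 and 7, with Sod1 gained in neutrophils against monocytes and lost in blood against neutrophils (-0.63, adjusted p = 0.0545). Over all genes these fits called 5712, 11849, 11073 and 7727.

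The tissue comparisons rest on 4 to 8 matching libraries a tissue and those of IVIG on 6 to 10 libraries a label, and what depth adds to these limits was not tested.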
